A study of Mus musculus with 36 samples.

Results

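The comparison described here is the interaction of a tau transgene with spatial training in the mouse hippocampus: the training difference in Tau mice minus the training difference in Control mice, per gene, on the log2 scale. It rests on 19 of the 36 libraries of the series, chosen by the genotype and training state in the sample labels: 6 Control naive, 5 Control trained, 4 Tau naive and 4 Tau trained. Nothing in the labels says that samples of a group came from separate mice. The p-values thus reflect how far these samples varied, and some of that variation may be technical.

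The mice were C57BL/6 females aged 6 months. All of them, Controls included, carried the PV_Cre;RiboTag+/- alleles, in which Cre from the Pvalb locus switches on a tagged form of Rpl22, a ribosomal protein, in parvalbumin interneurons. Only the input fraction was sequenced, so the libraries hold RNA of the whole dissected tissue and not of the tagged cells. Tau mice also carried the Tau P301S transgene of the PS19 line, a mutant human tau expressed in neurons from the mouse Prnp promoter. Control mice carried neither the tau nor the amyloid transgene. Training in the Morris water maze lasted 5 days, with 6 trials on each. Trained mice had a probe trial 24 hours later and were killed 2 hours after it. Naive mice stayed in the home cage, and all mice were handled for 3 minutes on 3 days. The other 17 libraries carried the APP transgene J9 (Sw,Ind) with or without Tau, and were used for an interaction that shares no library with the one described.

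Tau is a microtubule-associated protein that is phosphorylated, leaves microtubules and aggregates in tauopathies, and the P301S mutation promotes this. Spatial learning in the water maze depends on the hippocampus, where neuronal activity induces immediate early genes such as Fos and Arc within minutes and growth factors such as Bdnf more slowly. An interaction is above 0 when a gene's trained-to-naive ratio was higher in Tau than in Control mice, and below 0 when it was lower. It can come from any of the 4 groups, so the levels of all 4 are given with it.

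Libraries held 69.2 to 110.2 M counts, where the labels give 40 M reads per sample, and whether both mates of a read pair were counted is not given in the sources used here. The mouse Prnp level checks the genotype, because reads of the Prnp-driven transgene align to Prnp. Prnp was at 728 to 879 CPM (counts scaled to the library's TMM-adjusted total) in the 11 Control libraries and at 1472 to 2142 CPM in 7 of the 8 Tau libraries. The library labelled Tau trained replicate 4 was at 846 CPM, within the Control range. Transcripts seen with the transgenic line (Lamr1-ps1, Gm32754 and 4930590L14Rik together) had 186 to 392 counts in the other 7 Tau libraries, 0 to 2 in Control libraries and 0 in that library. Its data thus go against its label, and results are given with and without it.

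Another library stands apart in tissue content. Control trained replicate 4 had a score of 2.16 for markers of the striatum, against at most 0.37 in the other 18 libraries (list scores average the members' log2 CPM per library, centred on the average of the 36 libraries). Adora2a, the adenosine receptor of the indirect pathway, was at 26 CPM there and at 1.09 to 2.63 CPM in the others. In bulk tissue fewer cells of a type and less RNA per cell cannot be told apart.

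No gene passed the test for the interaction. Of 25382 genes tested with edgeR's quasi-likelihood test, 0 (percent called: 0) had a Benjamini-Hochberg adjusted p under 0.05, and 2294 (9.04%) had an unadjusted p under 0.05, 1168 of them above 0 and 1126 below. The smallest adjusted p was 0.0608, and 4 genes were under 0.1. Without the library labelled Tau trained replicate 4, 0 of 25391 genes passed, the smallest adjusted p was 0.148, and 2103 genes (8.28%) had an unadjusted p under 0.05. DESeq2 called 15 genes with all 19 libraries and 8 without that library, and limma-voom with quality weights called 0 both times.

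The precision sets what could be seen. The median standard error of the interaction was 0.10 on the log2 scale for the 6397 genes with a mean log2 CPM of 5 or more, 0.18 for the 10118 genes between 0 and 5, and 0.62 for the 8867 genes below 0. The median interaction over all genes was -0.01, with 48.6% of genes above 0. Weakly expressed genes therefore had to differ several times more than strong ones to stand out.

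The 4 genes with the smallest p were predicted genes whose levels split the Control naive libraries and the Tau trained libraries. Gm38702, protein-coding in the RefSeq table, was at 0.962, 0.0257, 0.0766, 0.0755, 0.482 and 1.00 CPM in Control naive replicates 1 to 6 and at 1.07, 0.034, 0.83 and 1.21 CPM in Tau trained replicates 1 to 4. It was at 0 to 0.0593 CPM in the 5 Control trained libraries and at 0.0219 to 0.0342 CPM in the 4 Tau naive libraries. Its interaction was 8.28 ± 1.54 (log2 ± SE; edgeR adjusted p = 0.0608). High and low libraries occur within Control naive and within Tau trained, and the other 2 groups are low throughout.

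The same 8 of 36 libraries were high for 6 of the 8 such genes examined. These were Control naive replicates 1, 5 and 6, Tau trained replicates 1, 3 and 4, APP naive replicate 1 and APP/Tau naive replicate 1. The 6 genes were Gm38702, Gm46386, Gm38699, Gm31624, LOC118567995 and Gm7993, chosen after their values were seen. Gm7993, a pseudogene in the same table, was at 6.92 to 10.4 CPM in those 8 libraries and at 0.867 to 2.07 CPM in the other 28. Gm6197 was high in 6 libraries at 14.3 to 15.3 CPM and at most at 0.268 CPM elsewhere. Gm5802 had another split: it was at 6.67 to 8.14 CPM in Control trained replicate 2 and Tau naive replicates 1, 3 and 4, and at 0.886 to 1.74 CPM in the other 32 libraries. The RefSeq gene table of GRCm38.p6 places Gm38702, Gm46386 and Gm7993 on different chromosomes. Reads of predicted genes and pseudogenes can come from near-identical copies, so their exact source is uncertain.

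**Figure D1:**
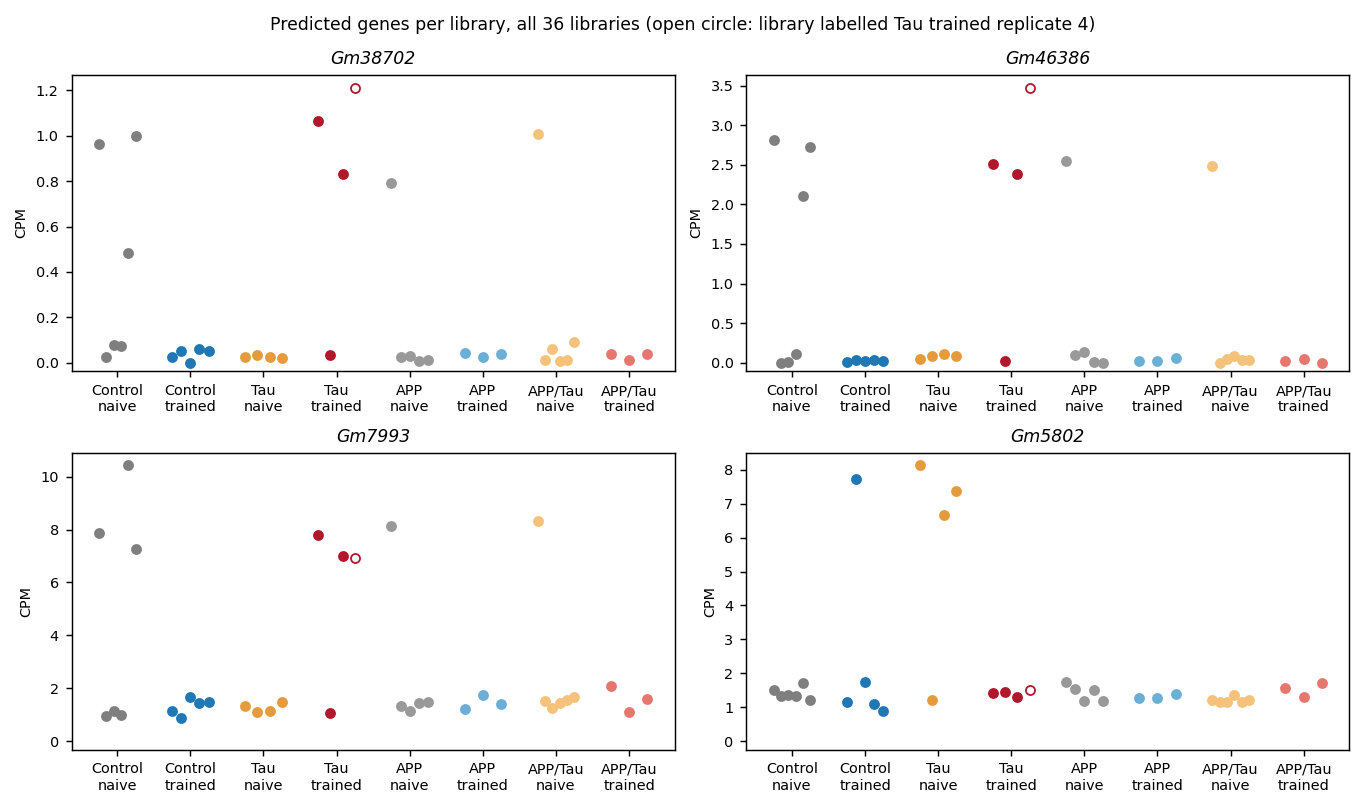
Level in CPM (y axis) of 4 predicted genes in each of the 36 libraries, by group (x axis), with the library labelled Tau trained replicate 4 as an open circle. Gm38702, Gm46386 and Gm7993 are high in the same 8 libraries, and Gm5802 is high in 4 others.

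Under other settings of edgeR most calls of the interaction were of such genes. Leaving out Tau trained replicate 2, the low library of its group, gave 6 calls, all of predicted genes (Gm31624, Gm38699, Gm38702, Gm46386, Gm48606 and LOC118567995). Leaving out Control naive replicate 2, 3 or 4, which are low too, gave 3, 4 and 4 calls, again of predicted genes. Leaving out Tau naive replicate 2 gave 1 call, Gm5802. Of the 15 genes called by DESeq2, 9 have predicted or pseudogene names. The others were Fancf and Sult2b1 above 0, and Cfap69, Intu, Rrp1b and Pou4f2 below 0. Pou4f2 was weakly expressed, with a mean log2 CPM of -2.26. Its interaction was -22.0 with DESeq2 and -7.80 with edgeR (edgeR adjusted p = 0.674).

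The genes named below are the 10 above 0 and the 10 below 0 with the smallest p among well-detected genes, with an average log2 CPM of 0 or more, whose symbols are not predicted names. None passed the threshold, and their adjusted p-values with edgeR ran from 0.113 to 0.384. Their values chose them and are a description. So is any separation of groups without overlap in the genes described, whose share over all genes was not counted. Such separations count the library labelled Tau trained replicate 4 as Tau trained, although its data go against that label. Of the 20 genes, 18 are described here, and those 18 kept their direction when any single library of the 19 was left out. Choosing them by small p in the same libraries made that likely beforehand, so it is no separate support.

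Fancf, a subunit of the Fanconi anaemia core complex that repairs DNA crosslinks, had the smallest p of the genes above 0. It was at 2.28, 2.47, 2.50 and 2.16 CPM in Tau naive replicates 1 to 4 and at 4.04, 3.31, 3.03 and 3.23 CPM in Tau trained replicates 1 to 4. It was at 2.31 to 3.05 CPM (median 2.88) in Control naive libraries and at 2.10, 2.14, 2.25, 2.54 and 2.28 CPM in Control trained replicates 1 to 5. Every Tau trained library was above every Tau naive library, while 4 of the 5 Control trained libraries lay below every Control naive library. The interaction was 0.86 ± 0.17 (adjusted p = 0.113), and 0.88 ± 0.18 without the library labelled Tau trained replicate 4 (adjusted p = 0.148).

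Gabra5 encodes the alpha subunit of the extrasynaptic GABA-A receptors that give hippocampal pyramidal cells their tonic inhibition. It was at 185, 142, 131 and 153 CPM in Tau naive replicates 1 to 4 and at 219, 222, 203 and 216 CPM in Tau trained replicates 1 to 4. Control naive libraries ran from 157 to 202 CPM (median 186), and Control trained replicates 1 to 5 were at 181, 173, 171, 127 and 197 CPM. All 4 Tau trained libraries were above all other libraries of the 4 groups. The library labelled Tau trained replicate 4, with Prnp in the Control range, was among them at 216 CPM. Of the 4 Tau naive libraries, 3 were below every Control naive library. The interaction was 0.60 ± 0.14 (adjusted p = 0.248), and 0.51 without Control trained replicate 4, the striatum-rich library and the lowest Control value.

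Bdnf, a secreted neurotrophin of the fixed panel, was at 40.4, 34.1, 38.4 and 39.6 CPM in Tau naive replicates 1 to 4 and at 52.8, 52.1, 48.1 and 55.0 CPM in Tau trained replicates 1 to 4. It was at 43.8 to 54.7 CPM (median 48.4) in Control naive and at 54.9, 48.2, 50.3, 41.6 and 52.1 CPM in Control trained libraries. The Tau naive libraries were below all 15 others, and 3 of the 4 Tau trained libraries lay in the Control range, with the library labelled Tau trained replicate 4 just above it. The interaction of Bdnf was 0.45 ± 0.12 (adjusted p = 0.411).

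Ptgs2, the inducible cyclooxygenase COX-2 of forebrain neurons, was at 21.2, 19.7, 21.5 and 23.7 CPM in Tau naive replicates 1 to 4 and at 29.8, 32.8, 28.6 and 36 CPM in Tau trained replicates 1 to 4. In Control naive libraries it ran from 23.9 to 33.4 CPM (median 27) and Control trained libraries from 20.2 to 30.2 CPM. The Tau groups did not overlap and the Control groups did. Its interaction was 0.68 ± 0.17 (adjusted p = 0.329). The promoter window of Ptgs2 is shown because the gene is activity-regulated through a cyclic AMP response element. The window is that of RefSeq on GRCm38.p6, chr1:150099781-150100080, plus strand, with the half-site TGACG, here on the other strand, in capitals. The match starts at base 14 counted from the annotated start, and thus lies downstream of it.

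Ptgs2: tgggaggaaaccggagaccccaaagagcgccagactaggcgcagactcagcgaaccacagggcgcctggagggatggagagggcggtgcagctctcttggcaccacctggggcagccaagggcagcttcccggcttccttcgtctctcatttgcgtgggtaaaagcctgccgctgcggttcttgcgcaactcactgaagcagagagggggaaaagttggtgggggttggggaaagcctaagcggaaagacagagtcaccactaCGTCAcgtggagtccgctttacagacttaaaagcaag

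TGACG, searched on both strands, was in 20.8% of all 32851 promoters of the table. It was in the promoters of 3 of the 7 named genes above 0 that matched (Emc10, Ptgs2 and Sult2b1), of 2 of the 10 below 0 (Fam227a and Rrp1b), and of 23 of the 31 immediate early and activity-regulated genes that matched. The genes that matched include those named without the library labelled Tau trained replicate 4.

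The other 6 genes above 0 described here include membrane and synaptic proteins. Lrrc4, a postsynaptic adhesion molecule that binds netrin-G2, was at 90.6 to 99.3 CPM in Tau naive and at 108 to 123 CPM in Tau trained libraries, with an interaction of 0.35 ± 0.09. Emc10, a subunit of the complex that inserts proteins into the endoplasmic reticulum membrane, was at 127 to 152 and at 148 to 177 CPM in the same groups, with 0.40 ± 0.10. Sult2b1, a sulfotransferase of cholesterol and steroids, was at 2.44 to 3.93 and at 4.73 to 7.19 CPM, with 1.01 ± 0.23. Dnttip2, a nucleolar protein, was at 15 to 18.7 CPM in Tau naive and at 19.8 to 23.4 CPM in Tau trained libraries, above all Control libraries (11.2 to 17.3 CPM), with 0.69 ± 0.18. Tmem68, a membrane protein of the endoplasmic reticulum, and Ankrd46 had interactions of 0.40 ± 0.10 and 0.29 ± 0.07. The Tau groups overlapped for Emc10. The other 5 of these genes, chosen by small p like the rest, had every Tau trained library above every Tau naive library. The share of all genes with such a separation was not counted, so the separation sets these genes apart from no others. With edgeR, 14.6% of all genes had an unadjusted p under 0.05 for training within Tau, which is another measure.

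**Figure D2:**
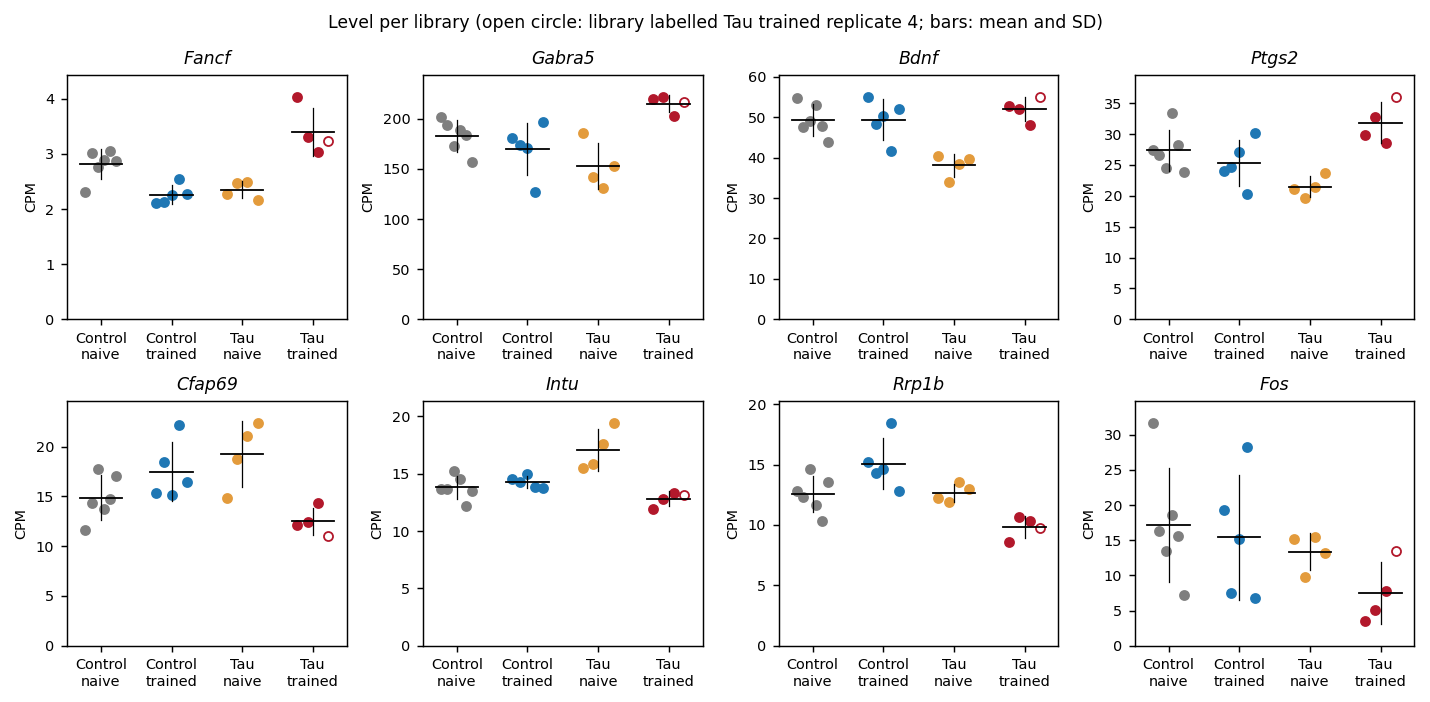
Level in CPM (y axis) of 8 genes in each library of the 4 groups (x axis), with bars for mean and SD and the library labelled Tau trained replicate 4 as an open circle. Fancf, Gabra5, Bdnf and Ptgs2 are higher in Tau trained than in Tau naive libraries with no overlap, Intu and Rrp1b are lower with no overlap, and so is Cfap69, whose closest libraries are at 14.3 and 14.8 CPM. Fos overlaps.

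Several of the genes below 0 encode proteins of cilia. Cfap69, a protein of cilia and sperm flagella, was at 14.8, 18.8, 21.1 and 22.4 CPM in Tau naive replicates 1 to 4 and at 12.2, 12.4, 14.3 and 11.1 CPM in Tau trained replicates 1 to 4. Control naive libraries ran from 11.6 to 17.7 CPM (median 14.6), and Control trained replicates 1 to 5 were at 15.3, 18.5, 15.1, 22.2 and 16.4 CPM. Tau trained libraries were below all Tau naive and all Control trained libraries. The interaction was -0.86 ± 0.19 (adjusted p = 0.207), and -0.76 without Control trained replicate 4.

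Intu, a planar cell polarity effector needed to build cilia, was at 15.5, 15.8, 17.6 and 19.4 CPM in Tau naive replicates 1 to 4 and at 11.9, 12.8, 13.4 and 13.2 CPM in Tau trained replicates 1 to 4. In Control naive libraries it ran from 12.2 to 15.3 CPM (median 13.7) and Control trained libraries from 13.7 to 15 CPM. The Tau naive libraries were above all 15 others, and the interaction was -0.47 ± 0.11 (adjusted p = 0.229). Kif27, a kinesin of motile cilia named from the values without the library labelled Tau trained replicate 4, was at 5.76 to 9.21 CPM in Tau naive and at 3.99 to 6.28 CPM in Tau trained libraries. Its interaction was -0.72 ± 0.22 with and -0.86 ± 0.22 without that library (adjusted p = 0.411 and 0.400). For Kif27 it was -0.49 with the choroid plexus score and -0.45 with the library number as a covariate.

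Tex9 was at 9.19, 12.2, 12.1 and 12.1 CPM in Tau naive replicates 1 to 4 and at 8.50, 6.37, 8.70 and 8.43 CPM in Tau trained replicates 1 to 4, with an interaction of -0.66 ± 0.18. Fam227a was at 7.10 to 11.2 CPM in Tau naive and at 5.04 to 7.58 CPM in Tau trained libraries, which overlap, with -0.82 ± 0.21. Ppil6, a cyclophilin-like gene named like Kif27, had -0.87 ± 0.25 with and -0.99 ± 0.25 without the library labelled Tau trained replicate 4. Tex9 and Intu had every Tau trained library below every Tau naive library.

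Genes of motile cilia are often controlled by RFX factors through the X-box, a palindrome whose half-site is GTTGCC. This motif, GTTGCC followed by NN and GG and searched on both strands, was in 2.25% of all promoters of the table. Counted by gene, 2.59% of 27025 symbols had it in any promoter. Of the genes that matched, 3 of the 10 named below 0 had it (Intu, Tex9 and Ppil6). So did 0 of the 7 named above 0 and 0 of the 16 of the motile cilia list. The windows of Intu and Tex9 are shown with the match, on the other strand, in capitals. They are from RefSeq on GRCm38.p6: Intu at chr3:40540517-40540816, plus strand, and Tex9 at chr9:72491910-72492209, minus strand. The match starts 46 bases before the annotated start of Intu and 27 bases before that of Tex9.

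Intu: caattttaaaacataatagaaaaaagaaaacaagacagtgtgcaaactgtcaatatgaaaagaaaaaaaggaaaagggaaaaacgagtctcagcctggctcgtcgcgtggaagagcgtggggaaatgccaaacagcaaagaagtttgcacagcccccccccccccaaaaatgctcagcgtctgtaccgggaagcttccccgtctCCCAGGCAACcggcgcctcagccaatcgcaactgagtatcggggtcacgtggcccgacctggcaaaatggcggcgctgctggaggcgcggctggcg
Tex9: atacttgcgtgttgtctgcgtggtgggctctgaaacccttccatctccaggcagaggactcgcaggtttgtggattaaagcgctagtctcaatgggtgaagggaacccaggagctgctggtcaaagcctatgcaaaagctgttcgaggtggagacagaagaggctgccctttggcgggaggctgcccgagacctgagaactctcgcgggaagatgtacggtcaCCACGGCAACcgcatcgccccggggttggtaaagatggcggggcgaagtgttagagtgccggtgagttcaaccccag

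The other genes below 0 have various roles. Rrp1b, a nucleolar protein of ribosomal RNA processing, was at 12.2, 11.9, 13.6 and 13 CPM in Tau naive replicates 1 to 4 and at 8.60, 10.7, 10.3 and 9.73 CPM in Tau trained replicates 1 to 4. It was at 10.4 to 14.6 CPM (median 12.6) in Control naive and at 15.2, 14.3, 14.7, 18.4 and 12.8 CPM in Control trained libraries. Every Tau trained library was below every Tau naive and every Control trained library, and the naive groups overlapped. The interaction was -0.63 ± 0.14 (adjusted p = 0.207). Mir100hg, the host transcript of miR-100, was at 31.8 to 41.4 CPM in Tau naive and at 23.9 to 27.5 CPM in Tau trained libraries, with -0.58 ± 0.15.

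Myo5c, a class V myosin of secretory epithelia, was at 2.99 to 5.65 CPM in Tau naive and at 1.45 to 2.01 CPM in Tau trained libraries, with an interaction of -1.28 ± 0.35, and -0.92 when the choroid plexus score was a covariate. Ccdc80, a secreted matrix protein, was at 3.57 to 7.15 CPM and at 2.39 to 3.41 CPM, with -1.18 ± 0.31. Gtf2ird1, a transcription factor of the Williams syndrome region, was at 16.5 to 20.6 CPM and at 12.8 to 14.2 CPM, with -0.54 ± 0.15, and -0.38 without Control trained replicate 4. In these 3 genes every Tau trained library was below every Tau naive library.

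**Figure D3:**
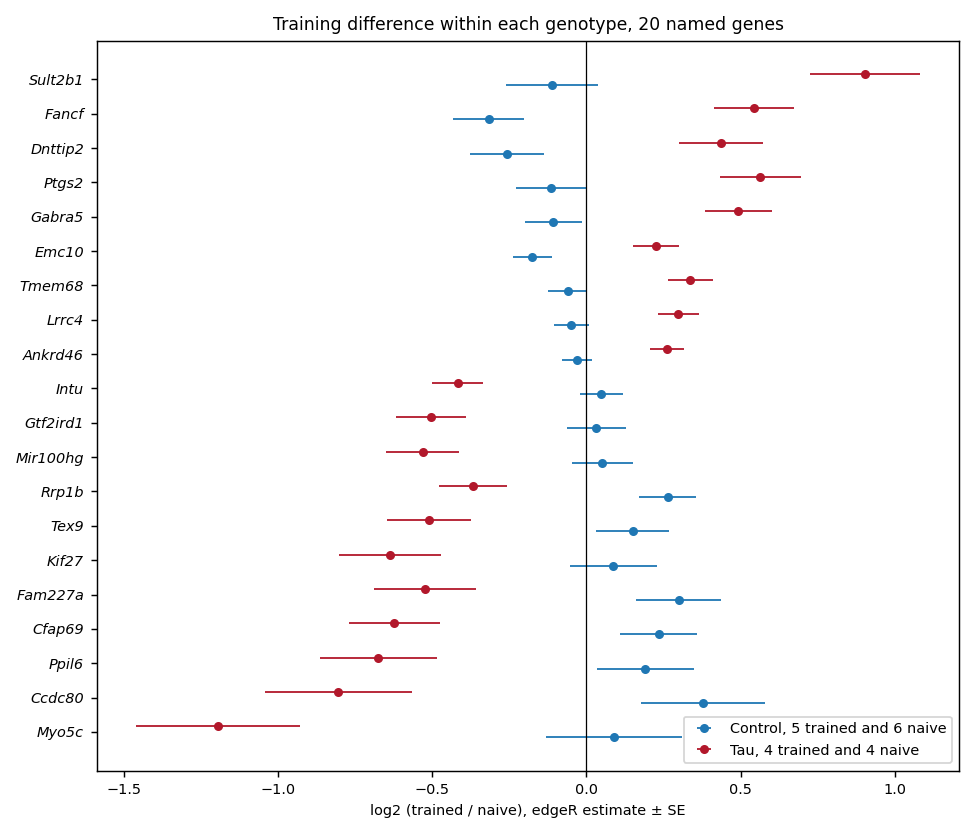
Training difference, log2 of trained over naive ± SE (x axis), in Tau mice and in Control mice for the 20 named genes described (y axis, ordered by their interaction). The Tau value lies farther from 0 than the Control value for these 20 genes, and the Control values run from -0.32 to 0.38.

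The genes of motile cilia were followed as a list, with the lists of tissues that border the hippocampus beside it. Of 20 motile cilia and ependyma genes tested, 0 were called, 0 were above 0 (48.6% of all genes), and the median interaction was -0.59, or -0.63 without the library labelled Tau trained replicate 4. There were 8 with an unadjusted p under 0.05, all below 0, where 4.44% of all genes were below 0 at that level. Hydin, a central-pair protein of motile cilia, was at 3.46, 3.10, 3.80 and 5.35 CPM in Tau naive replicates 1 to 4 and at 1.54, 1.80, 2.11 and 2.14 CPM in Tau trained replicates 1 to 4. Control naive libraries ran from 2.16 to 2.66 CPM (median 2.28) and Control trained libraries from 1.84 to 2.73 CPM. Tau naive libraries were above all 15 others. The interaction of Hydin was -0.99 ± 0.33 (adjusted p = 0.433), that of the axonemal dynein Dnah6 was -1.36 ± 0.50 and that of Dnah11 was -1.20 ± 0.46. With the choroid plexus score as a covariate Dnah6 was at -0.73 and Dnah11 at -0.62, and with the library number they were at -0.83 and -0.56.

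The choroid plexus list also lay below 0. It had 0 of 20 genes above 0, a median interaction of -2.01 and 0 members with an unadjusted p under 0.05. Ttr, the transthyretin that choroid plexus secretes, was at 1183, 1417, 1287 and 3324 CPM in Tau naive replicates 1 to 4 and at 49.3, 492, 63.1 and 67.0 CPM in Tau trained replicates 1 to 4. In Control naive libraries it ran from 23.7 to 2316 CPM (median 72.7) and Control trained replicates 1 to 5 were at 46.6, 82.9, 885, 651 and 40.0 CPM. High and low libraries occur in both Control groups, whereas all Tau naive libraries were high. The interaction of Ttr was -2.46 ± 1.94 (adjusted p = 0.712), and -0.0079 with the choroid plexus score as a covariate. Ttr is a member of that score, so the second value is drawn towards 0 by construction.

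The choroid plexus score was 0.99 to 2.35 in Tau naive, -2 to -0.09 in Tau trained, -2.29 to 1.77 in Control naive and -2.07 to 0.63 in Control trained libraries. The cilia score was 0.09 to 0.84, -0.44 to -0.22, -0.35 to 0.08 and -0.33 to -0.10 in the same order. With the choroid plexus score as a covariate the median of the cilia list was -0.30, and it was -0.41 to -0.73 when single libraries were left out. The thalamic and habenular list had 2 of 20 genes above 0 and a median of -0.58, and its score was 1.05 to 1.29 in 3 Tau naive libraries, -0.36 in Tau naive replicate 3, -0.68 to -0.34 in Tau trained and -0.95 to 1.04 in the 11 Control libraries. The part of bordering tissue in the interaction of the cilia genes was not tested beyond these values. The striatal list had 1 of 17 genes above 0 and a median of -1.02, which was -0.14 without Control trained replicate 4.

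**Figure D4:**
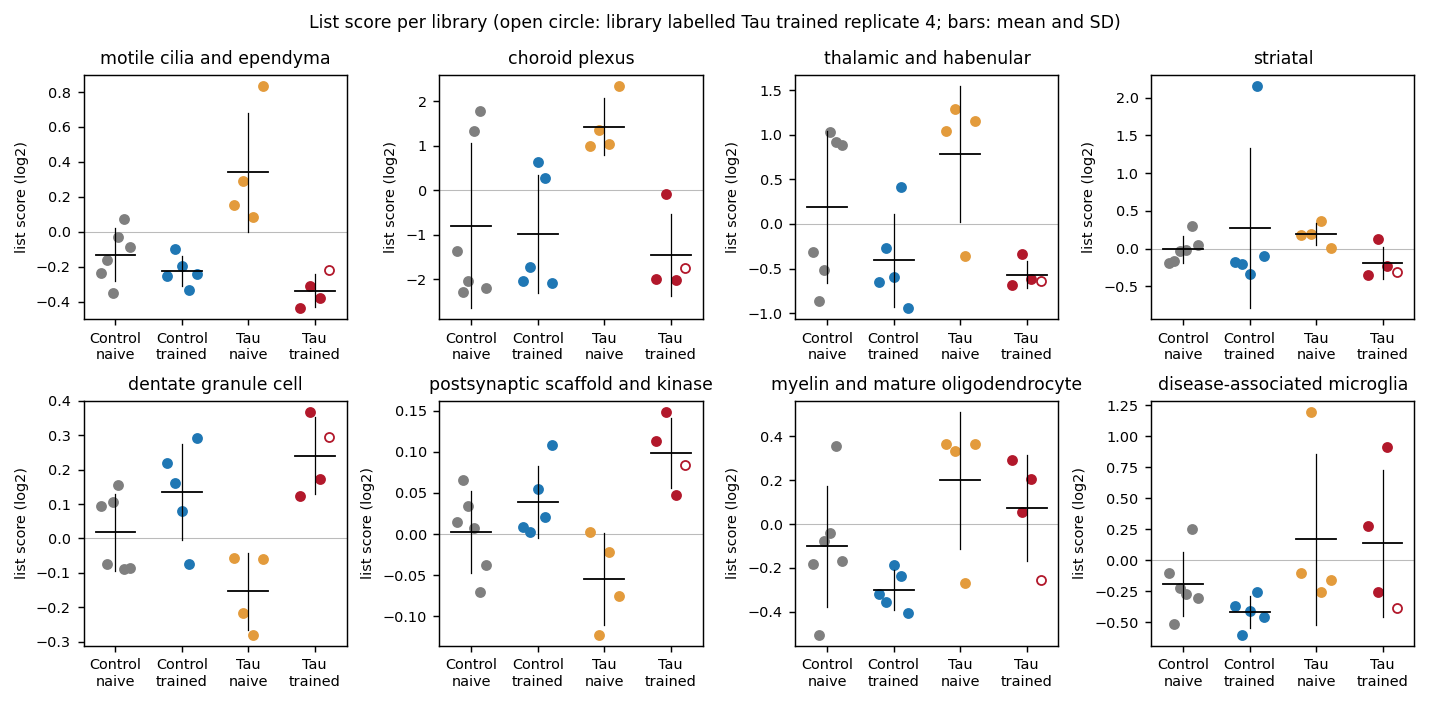
List score on the log2 scale (y axis) of 8 gene lists in each library of the 4 groups (x axis), with bars for mean and SD and the library labelled Tau trained replicate 4 as an open circle. Tau naive libraries are high for choroid plexus and cilia genes and low for dentate granule cell genes, and Control trained replicate 4 alone is high for striatal genes.

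Marker genes of hippocampal principal neurons leaned the other way. Of 18 dentate granule cell genes, 16 were above 0, the median was 0.25 and 5 had an unadjusted p under 0.05, all above 0, where 4.6% of all genes were above 0 at that level. All 11 CA1 pyramidal genes were above 0, with a median of 0.22 and 2 such members. Of 18 CA2 and CA3 pyramidal genes, 13 were above 0, with a median of 0.13, which was 0.05 without Tau naive replicate 3 and 0.23 without Tau naive replicate 1. The dentate score was -0.28 to -0.06 in Tau naive and 0.12 to 0.37 in Tau trained libraries, without overlap, and -0.09 to 0.15 and -0.07 to 0.29 in Control naive and Control trained libraries. The medians were 0.16 for dentate and 0.16 for CA1 genes without Control trained replicate 4, and the CA1 median was 0.12 at its lowest when a single library was left out, without Control naive replicate 2.

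C1ql2, a secreted synapse organiser of mossy fibres, was at 35.1, 36.2, 41.4 and 51.2 CPM in Tau naive replicates 1 to 4 and at 70.1, 85.2, 61.3 and 87.8 CPM in Tau trained replicates 1 to 4. It was at 52.7 to 74.3 CPM (median 58.5) in Control naive and at 59.5, 68.9, 55.3, 34.9 and 81.8 CPM in Control trained libraries, the lowest being replicate 4. Its interaction was 0.92 ± 0.31 (adjusted p = 0.440). Stxbp6, which binds the SNARE proteins of vesicle fusion, was at 67.5 to 101 CPM in Tau naive and at 115 to 126 CPM in Tau trained libraries, with 0.56 ± 0.15 (adjusted p = 0.368). Pou3f1, a POU domain factor of CA1 cells, had 0.35 ± 0.15, and Man1a, a mannosidase marking CA1, had 0.27 ± 0.12. Neither list had a called member.

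Synaptic genes were above 0 by small amounts. In the postsynaptic scaffold and kinase list 32 of 35 genes were above 0, with a median of 0.12. In the presynaptic vesicle and release list 28 of 36 were, with a median of 0.13. Ppp3ca, the catalytic subunit of calcineurin, had an interaction of 0.37 ± 0.12. Dlg3, the scaffold SAP102, had 0.26 ± 0.08 and Snap25, a SNARE of vesicle fusion, had 0.17 ± 0.08. Their adjusted p-values were 0.418, 0.411 and 0.537. The postsynaptic score was -0.12 to 0.00 in Tau naive and 0.05 to 0.15 in Tau trained libraries, without overlap, and -0.07 to 0.11 over both Control groups.

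Receptors and channels had similar values. Of 35 glutamate and GABA receptor genes 24 were above 0, with a median of 0.08, and of 39 voltage-gated ion channel genes 31 were, with a median of 0.10. Gria1, an AMPA receptor subunit, was at 884 to 1097 CPM in Tau naive and at 1124 to 1269 CPM in Tau trained libraries, with 0.32 ± 0.13. Kcnj3, a G protein-gated potassium channel, had 0.31 ± 0.11. Their adjusted p-values were 0.505 and 0.472.

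Kinases and phosphatases that act on tau were followed because the transgene product is their substrate. Of 30 genes 24 were above 0, with a median of 0.09. There were 5 with an unadjusted p under 0.05, all above 0, where 4.6% of all genes were above 0 at that level. The synaptic, receptor and channel lists leaned the same way. Fyn, a tyrosine kinase that binds and phosphorylates tau, was at 128 to 143 CPM in Tau naive and at 138 to 159.5 CPM in Tau trained libraries, with 0.25 ± 0.07 (adjusted p = 0.411). Mapk10, the neuronal kinase JNK3, had 0.21 ± 0.07 (adjusted p = 0.454). Mapt, the mouse tau gene, had 0.03 ± 0.07 and was at 510.0 to 577 CPM in the 8 Tau libraries.

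**Figure D5:**
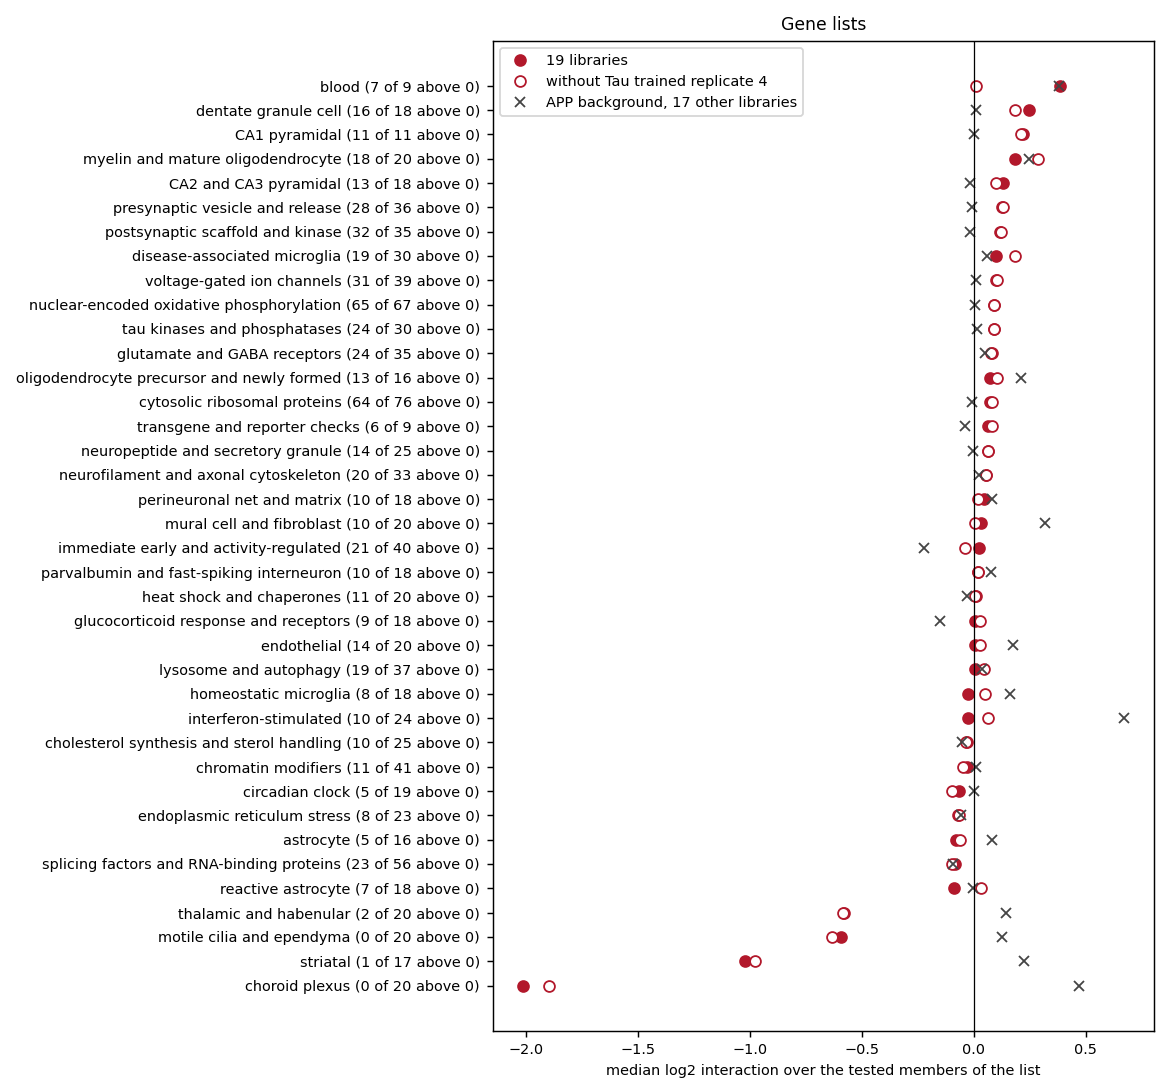
Median log2 interaction (x axis) over the tested members of 38 gene lists (y axis, with the number of members above 0), with all 19 libraries (filled), without the library labelled Tau trained replicate 4 (open), and for the interaction on the APP background in the 17 other libraries (crosses). Choroid plexus, striatal, motile cilia and thalamic lists lie at -0.58 or below in the first and above 0 in the last.

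Genes of energy metabolism and translation had small values, most of them above 0. Of 67 nuclear-encoded oxidative phosphorylation genes 65 were above 0, with a median of 0.09 and 3 with an unadjusted p under 0.05. Of 76 cytosolic ribosomal protein genes 64 were above 0, with a median of 0.07 and 1 such gene. Of all genes, 9.04% had an unadjusted p under 0.05. Without Control naive replicate 5 the medians were 0.05 for oxidative phosphorylation and 0.03 for ribosomal protein genes. Ndufa9, a subunit of complex I, was at 76.9 to 79.4 CPM in Tau naive and at 84.4 to 92.0 CPM in Tau trained libraries, with 0.21 ± 0.08. In the splicing factor and RNA-binding protein list 23 of 56 genes were above 0, with a median of -0.08. Clk4, a kinase of splicing factors, had -0.55 ± 0.23, and Rbfox1, a neuronal splicing factor, and Hnrnpk, an RNA-binding protein, had 0.29 ± 0.10 and 0.22 ± 0.09. Members within each of these lists share depth and scaling, so their signs are not independent.

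Immediate early genes gave no common direction. Of 40 immediate early and activity-regulated genes 21 were above 0, with a median of 0.02, and without the library labelled Tau trained replicate 4 there were 18, with a median of -0.04. Fos, a transcription factor induced by activity, was at 15.2, 9.70, 15.4 and 13.1 CPM in Tau naive replicates 1 to 4 and at 3.55, 5.14, 7.82 and 13.5 CPM in Tau trained replicates 1 to 4. Control naive libraries ran from 7.16 to 31.7 CPM (median 16), and Control trained replicates 1 to 5 were at 19.3, 7.51, 15.1, 28.2 and 6.79 CPM. The highest Tau trained value is that of the library labelled Tau trained replicate 4, and the 4 groups overlap. The interaction of Fos was -0.72 ± 0.61 with that library and -1.14 ± 0.63 without it (adjusted p = 0.737 and 0.617). It was -0.38 without Control trained replicate 4.

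The other induced transcription factors had wide errors. Npas4, a neuron-specific activity-regulated factor, had an interaction of -0.41 ± 0.36 (-0.15 without Control trained replicate 4), Fosb had -0.23 ± 0.41 and Nr4a1 had -0.26 ± 0.35. Egr1 had -0.18 ± 0.33 and Arc, which acts in AMPA receptor endocytosis, had -0.06 ± 0.43. Egr1 and Arc changed sign when single libraries were left out, as did Nptx2, a secreted pentraxin (-0.13 ± 0.30). Homer1 had 0.12 ± 0.13, and Plk2, a kinase of synaptic homeostasis, had 0.26 ± 0.13. All 4 groups overlapped for Npas4, Egr1 and Arc, and at these errors a difference of the size of the values given was not detectable.

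Stress hormone genes also gave no common direction. Of 18 genes of the glucocorticoid response and its receptors 9 were above 0, with a median of 0.01. Nr3c2, the mineralocorticoid receptor of hippocampal neurons, was at 154 to 196 CPM in Tau naive and at 197 to 239 CPM in Tau trained libraries, with 0.54 ± 0.16 (adjusted p = 0.411). Fkbp5, a chaperone induced by glucocorticoids, had 0.20 ± 0.17, and Sgk1, an induced kinase, had 0.05 ± 0.48. Hspa5, the chaperone BiP of the endoplasmic reticulum, had -0.23 ± 0.30. Fkbp5 and Sgk1 turned below 0 with the library number as a covariate.

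Glial genes varied by library. Of 30 disease-associated microglia genes 19 were above 0, with a median of 0.10, and without the library labelled Tau trained replicate 4 there were 22, with a median of 0.18. The median was -0.13 without Tau trained replicate 3 and 0.33 without Tau naive replicate 2. Clec7a, a lectin of activated microglia, was at 0.452, 8.79, 0.147 and 0.34 CPM in Tau naive replicates 1 to 4 and at 1.39, 0.204, 6.55 and 0.059 CPM in Tau trained replicates 1 to 4, with 0.077 to 0.623 CPM in Control libraries. Tau naive replicate 2 and Tau trained replicate 3 stood out in both states. Its interaction was 0.35 ± 2.77. Gfap, the intermediate filament of reactive astrocytes, was at 1135 CPM in Tau naive replicate 2 and at 769 CPM in Tau trained replicate 3, but also at 1203 CPM in Control naive replicate 5, with an interaction of 0.55 ± 0.76. Without Control naive replicate 5 that of Gfap was 0.05. Trem2 and C1qa, microglial genes, had 0.19 ± 0.52 and -0.10 ± 0.53.

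Most myelin genes had values above 0. Of 20 myelin and mature oligodendrocyte genes 18 were, with a median of 0.18, or 0.29 without the library labelled Tau trained replicate 4. The median was 0.04 without Tau naive replicate 3, the library with the lowest myelin score of its group. Opalin, a transmembrane protein of mature oligodendrocytes, was at 8.08 to 22.8 CPM (median 18.4) in Control naive and at 9.71 to 11.8 CPM in Control trained libraries, with 15.9 to 25.3 CPM in Tau naive and 17.7 to 29.3 CPM in Tau trained libraries. The Control groups overlapped in 1 naive library, and its interaction was 0.72 ± 0.34 (adjusted p = 0.544). Bcas1, a gene of myelinating oligodendrocytes, had 0.49 ± 0.23 and Mbp, myelin basic protein, had 0.30 ± 0.19. The neuropeptide genes Npy, Sst and Vgf had 0.32 ± 0.18, 0.02 ± 0.17 and 0.07 ± 0.15. Pvalb, the marker of the tagged interneurons, had -0.39 ± 0.64, or -0.09 without the library labelled Tau trained replicate 4, and was at 2.59 CPM in Control naive replicate 3 and at 2.76 CPM in the library labelled Tau trained replicate 4, with 11.9 to 20.7 CPM in the 17 others. Rpl22 had 0.09 ± 0.08 and App had 0.16 ± 0.08.

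Tau trained libraries carried the library numbers 3 to 9 and Tau naive libraries 11 to 36, while Control trained and Control naive numbers ran from 2 to 26 and from 7 to 28, and what these numbers stand for is not given in the labels. The 4 comparisons that make up the interaction share its libraries and are given beside it. Training within Tau called 0 genes with edgeR (percent called: 0), with 3707 genes (14.6%) at an unadjusted p under 0.05 and a smallest adjusted p of 0.0579. There were 45 genes under an adjusted p of 0.06. DESeq2 called 423 genes in it and limma-voom 779. Training within Control called 0 genes (percent called: 0), with 1486 (5.85%) at an unadjusted p under 0.05, and DESeq2 called 1 and limma-voom 0. Tau against Control in naive mice called 7 genes (0.0276%), all higher in Tau, Prnp and Gm5802 among them.

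Tau against Control in trained mice called 77 genes (0.303%), of which 25 were higher and 52 lower in Tau trained mice. Without the library labelled Tau trained replicate 4 there were 32 (0.126%), 17 higher and 15 lower. Among the 25 higher genes were Gm38702, Gm46386, Gm38699 and Gm31624, the predicted genes that were high in the same libraries of several groups. Prnp, Prn, Lamr1-ps1, Gm32754, 4930590L14Rik and Gm6214 were among the 25 too. These were also higher in Tau than in Control naive mice, with an edgeR unadjusted p of 0.000372 or less each. Dnttip2 was 0.85 ± 0.13 higher on the log2 scale (adjusted p = 0.00267), Fancf 0.60 ± 0.12 higher (adjusted p = 0.0242), Rrp1b 0.62 ± 0.10 lower (-0.62; adjusted p = 0.00637) and Mir100hg 0.52 ± 0.11 lower (-0.52; adjusted p = 0.0288). Mir100hg was not among the 32 genes called without that library, and the other 3 were. Prnp, the genotype check, was 1.11 higher (adjusted p = 8.56e-05). Among the lists, the splicing factor list had 3 called members lower in Tau than in Control trained mice (Acin1, Hnrnph1 and Tra2a) and 0 higher. Enpp6 of newly formed oligodendrocytes was higher at 0.99 and the chaperone gene Dnajb5 was lower at -0.47. Without the library labelled Tau trained replicate 4, Tra2a, Enpp6 and Dnajb5 were still called, and Acin1 and Hnrnph1 were not. The motile cilia, dentate, synaptic and immediate early lists had 0 called members. The number of calls ran from 3 to 360 when single libraries were left out, the lowest without Tau trained replicate 1 and the highest without Control trained replicate 5.

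The lists show which groups their interactions rest on, in values from the same libraries. For training within Tau, 47.7% of all genes were above 0, and 6.85% above and 7.75% below 0 at an unadjusted p under 0.05. There 0 of 20 cilia genes were above 0, with a median of -0.74 and 15 below at that p, and 17 of 18 dentate genes were, with a median of 0.43 and 14 above. The lists of bordering tissue moved farther in the same comparison. Of 20 choroid plexus genes 0 were above 0, with a median of -2.89 and 20 below at that p. Of 20 thalamic and habenular genes 0 were above 0, with a median of -1.21 and 14 below at that p. For training within Control, 47.9% of all genes were above 0 and 2.81% below 0 at that p. There 4 of 20 cilia genes were above 0, with a median of -0.15, 13 of 18 dentate genes were, with 0.08, and 2 of 67 oxidative phosphorylation genes were, with -0.05. Of 20 choroid plexus genes 0 were above 0, with a median of -0.80 and 0 below at that p. Of 20 thalamic and habenular genes 3 were above 0, with a median of -0.64 and 7 below at that p.

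For Tau against Control in naive mice, 49.8% of all genes were above 0, 9.31% had an unadjusted p under 0.05 and 4.87% were above 0 at it. All 20 cilia genes were higher in value in Tau naive mice, with a median of 0.48 and 13 at that p, 2 of 18 dentate genes were, with -0.13, and 3 of 40 immediate early genes were, with -0.21. In trained mice 50% of all genes were above 0 and 6.64% at that p. There 18 of 20 myelin genes were above 0, with a median of 0.41 and 13 at that p, and 16 of 56 splicing genes were, with a median of -0.14.

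The same interaction was measured in the 17 libraries on the APP background, as the training difference in APP/Tau mice minus that in APP mice. It shares no library with the interaction above, but the scaling, the filter and the spread per gene were common to both. The 17 libraries were 5 APP naive, 3 APP trained, 6 APP/Tau naive and 3 APP/Tau trained, so the trained groups were small. No gene passed there (0 of 25382; percent called: 0), 967 (3.81%) had an unadjusted p under 0.05, 380 of them (1.5%) above 0, and DESeq2 and limma-voom called 0 too. Of the 20 named genes 10 had the same direction as on the Control background, where 55.1% of all genes did. Of the 2294 genes with an unadjusted p under 0.05 on the Control background 60.2% did. Of the 10 genes named without the library labelled Tau trained replicate 4, 7 did.

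Single genes differed in this respect. Fancf was 0.44 ± 0.19 above 0 on the APP background (adjusted p = 0.998), whereas Gabra5 was at -0.08 ± 0.16, Bdnf at -0.15 ± 0.14 and Ptgs2 at -0.15 ± 0.19. Cfap69 was at -0.03 ± 0.21, Intu at -0.12 ± 0.12, Rrp1b at -0.15 ± 0.15 and Mir100hg at -0.31 ± 0.17. On that background 47.3% of all genes were above 0. The cilia list had 13 of 20 genes above 0 and a median of 0.13, the choroid plexus list 20 of 20 and 0.47, and the dentate list 10 of 18 and 0.01. The myelin list had 20 of 20 genes above 0 and a median of 0.25. The immediate early list, without a common direction on the Control background, had 3 of 40 above 0 and a median of -0.22. The difference between the backgrounds was itself tested and called 0 genes (percent called: 0), with 1079 genes (4.25%) at an unadjusted p under 0.05, of which 500 (1.97% of all) were above 0.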

How the data were processed

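RNA of both hippocampi was sequenced after poly(A) selection, per the labels' protocols, and the deposited table holds raw counts per gene symbol for 36 libraries. Reads were trimmed with Trimmomatic 0.39 and the build was mm39, per the submitters' processing notes. For the aligner, the counting tool, its annotation and its use of strand the sources used here give no name, so genes that overlap or have near-identical copies are uncertain.

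Counts as deposited were tested in R 4.3.3 with the quasi-likelihood test of edgeR 4.0.16, with TMM scaling, genes kept by filterByExpr (minimum count 10, minimum total 15), 8 group means over all 36 libraries, which share one estimate of the spread, and Benjamini-Hochberg adjustment at 0.05 over all genes tested. Results were repeated without the library labelled Tau trained replicate 4 (35 libraries). Alternatives were DESeq2 1.42.0, limma 3.58.1 voom with quality weights, other scaling and filtering, fewer groups, a replicate block, covariates and leaving out each library. Log2 CPM for list scores used a prior count of 2. The scripts were tested on simulated data.

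The members and the 39 gene lists were chosen with earlier results of these data known. Named genes are the 10 above and 10 below 0 with the smallest p (mean log2 CPM of at least 0, no predicted name), 5 and 5 without that library, checks, a panel and up to 3 members of each list by smallest p. Stxbp6, Nr3c2 and C1ql2 come from the lists. Some genes that the rule names are not reported here. Of 37 pairs of libraries within a group, 0 were identical, and counts differed beyond sampling noise in each. Promoter sequences are from the RefSeq table of GRCm38.p6.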

Additional observations from a re-analysis of the deposited data

Results flagged for a closer look

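A value is described here where the highest or lowest library of a group of 4 to 6 lay apart from the rest, its gap to the nearest library divided by the group's range being above Dixon's 95% critical value. Of 444 groups of values tested (73 genes and 38 list scores in 4 groups), 44 had such a library, and chance alone marks about 1 in 20. The values fall in 13 libraries, and no cause was tested.

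In Control trained replicate 4, Gtf2ird1 was the highest of its group at 23.5 CPM, with the nearest library at 15.9 CPM. Npas4 was highest there at 30.2 CPM, next to 17.1 CPM. Adora2a was highest there at 26 CPM, next to 1.84 CPM. Pou3f1 was lowest there at 60.5 CPM, next to 77.3 CPM. Ppp3ca was lowest there at 1572 CPM, next to 1977 CPM. C1qa was highest there at 36.5 CPM, next to 26.7 CPM. The cholesterol synthesis and sterol handling score was highest there at 0.248, next to -0.0625. The neuropeptide and secretory granule score was highest there at 0.435, next to 0.0864. The parvalbumin and fast-spiking interneuron score was highest there at 0.423, next to 0.0549. The perineuronal net and matrix score was highest there at 0.148, next to -0.085. The CA1 pyramidal score was lowest there at -0.265, next to 0.0572. The striatal score was highest there at 2.16, next to -0.0954.

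In Control naive replicate 5, App was the highest of its group at 1902 CPM, with the nearest library at 1678 CPM. Tmem68 was highest there at 41.9 CPM, next to 36.2 CPM. Gfap was highest there at 1203 CPM, next to 409.5 CPM. The chromatin modifiers score was lowest there at -0.383, next to -0.0542. The nuclear-encoded oxidative phosphorylation score was highest there at 0.238, next to 0.0167. The lysosome and autophagy score was highest there at 0.152, next to -0.0402.

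In Tau naive replicate 2, Clec7a was the highest of its group at 8.79 CPM, with the nearest library at 0.452 CPM. Trem2 was highest there at 17.8 CPM, next to 7.40 CPM. C1qa was highest there at 74.7 CPM, next to 30.3 CPM. Gfap was highest there at 1135 CPM, next to 354 CPM. The disease-associated microglia score was highest there at 1.20, next to -0.103. The reactive astrocyte score was highest there at 1.39, next to -0.143.

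In Tau trained replicate 2, Tex9 was the lowest of its group at 6.37 CPM, with the nearest library at 8.43 CPM. Plk2 was highest there at 221 CPM, next to 198 CPM. Ttr was highest there at 492 CPM, next to 67 CPM. Gm7993 was lowest there at 1.07 CPM, next to 6.92 CPM. The choroid plexus score was highest there at -0.0884, next to -1.74.

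In the library labelled Tau trained replicate 4, Dnttip2 was the lowest of its group at 19.8 CPM, with the nearest library at 22.8 CPM. Npas4 was highest there at 19 CPM, next to 11.4 CPM. The transgene and reporter checks score was lowest there at -0.968, next to 1.03.

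In Control trained replicate 5, Bcas1 was the lowest of its group at 50.9 CPM, with the nearest library at 91.5 CPM. Mbp was lowest there at 984 CPM, next to 1429.5 CPM. The endothelial score was lowest there at -1.01, next to -0.208. In Tau naive replicate 1, Tex9 was the lowest of its group at 9.19 CPM, with the nearest library at 12.1 CPM. The glutamate and GABA receptors score was highest there at 0.0973, next to -0.000877. In Tau naive replicate 3, the myelin and mature oligodendrocyte score was the lowest of its group at -0.27, with the nearest library at 0.334. The thalamic and habenular score was lowest there at -0.358, next to 1.05. In Control naive replicate 4, the circadian clock score was the lowest of its group at -0.163, with the nearest library at -0.0056. In Control naive replicate 6, Rbfox1 was the lowest of its group at 409.7 CPM, with the nearest library at 461 CPM. In Control trained replicate 2, Gm5802 was the highest of its group at 7.74 CPM, with the nearest library at 1.74 CPM. In Tau naive replicate 4, Ttr was the highest of its group at 3324 CPM, with the nearest library at 1417 CPM. In Tau trained replicate 1, Mapt was the highest of its group at 577 CPM, with the nearest library at 542 CPM.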

How the results depend on the processing

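The median standard error of the interaction, 0.10 for genes at a mean log2 CPM of 5 or more and 0.62 for genes below 0, limits what could be seen for weak genes. The number of interaction calls, 0 with all 19 libraries, was 1 with only the groups compared, 6 with a replicate block, 15 with DESeq2 and 0 to 6 when single libraries were left out. With Tau trained replicate 4, as labelled, left out, there were 3 with the block, 8 with DESeq2 and 0 to 5. Training within Tau (0) had 1 call with the block, 5 with the library number as a covariate, 423 with DESeq2, 779 with limma-voom, and 0 to 192 when libraries were left out (192 without Tau naive replicate 1, 79 without Control trained replicate 4). Training within Control (0) had 1 with DESeq2 and 0 to 2. Tau against Control in naive mice (7) had 0 with only the groups compared, 4 with the block, 4 with the choroid plexus covariate and 3 to 9. Tau against Control in trained mice (77) had 9, 244 with the library number, 553 with DESeq2, 1300 with limma-voom, 161 with the choroid plexus covariate and 3 to 360. The cause of these moves was not tested.

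Sign turned for genes near 0. Arc was 0.011 with the block and -0.21 to 0.094 when single libraries were left out. Fkbp5 was -0.0013 and Sgk1 -0.37 with the library number. Clec7a was -0.27 with the block, -0.048 with the library number and -0.070 with the choroid plexus covariate, C1qa 0.064 with limma-voom, and Sst -0.10 with the library number and -0.040 with the choroid plexus covariate. Leaving out single libraries gave -0.0067 to 0.35 for Prnp, -0.33 to 0.058 for Egr1, -0.26 to 0.029 for Nptx2, -0.25 to 0.69 for Sgk1, -1.37 to 3.29 for Clec7a, -0.015 to 0.67 for Trem2, -0.41 to 0.41 for C1qa, -0.10 to 0.18 for Sst and -0.022 to 0.22 for Vgf. Of 2044 values of 73 genes, 1981 kept direction and stayed uncalled, 21 were called and 42 turned sign.

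Of 1064 list medians 9 moved beyond the spread between libraries: glucocorticoid -0.28, CA1 0.08 and cilia -0.37 with the library number; choroid plexus 0.02 and cilia -0.30 with the choroid plexus covariate; striatal -0.40 with limma-voom and -0.14 without Control trained replicate 4; homeostatic microglia 0.30 and reactive astrocytes 0.46 without Tau naive replicate 2. The choroid plexus median is drawn towards 0 by its covariate, because the covariate is the score of the same list. Of the 38 lists, 19 had a median that turned sign under at least 1 setting.

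Replicate numbers did not pair the libraries: over 25 same-number pairs r ran from -0.27 to 0.29 (median -0.05, against 0.02 for other numbers), 5 were over 0.1, and 2 of 19 libraries correlated best with their own number.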

Other observations

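The other lists given next had medians of -0.07 to 0.05, where that of all genes was -0.01. Of 37 lysosome and autophagy genes 19 were above 0, with a median of 0.0041, and 4 had an unadjusted p under 0.05, all above 0. Of 33 neurofilament and axonal cytoskeleton genes 20 were above 0, with a median of 0.05. Of 18 genes of parvalbumin and fast-spiking interneurons 10 were above 0, with a median of 0.02. Of 19 circadian clock genes 5 were above 0, with a median of -0.07, and of 23 endoplasmic reticulum stress genes 8 were, with a median of -0.07. When single libraries were left out, the lysosome, interneuron, clock and endoplasmic reticulum stress medians each turned sign at least once. None of these lists had a called member with edgeR, and 9.04% of all genes had an unadjusted p under 0.05.

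Interferon-stimulated genes had an interaction median of -0.03 on the Control background, with 10 of 24 above 0, which ran from -0.35 without Tau trained replicate 3 to 0.48 without Tau naive replicate 2. They had a median of 0.67 on the APP background, with 23 of 24 above 0 and 0 members with an unadjusted p under 0.05 in either. The 2 backgrounds share no library.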
